A study of Mus musculus with 12 samples.

Results

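The genes described are 34 genes of hypoxia and glycolysis: glucose and lactate transporters, the enzymes from hexokinase to lactate dehydrogenase, kinases that set the flux through the pathway, the oxygen-sensing machinery, and other genes that low oxygen induces. A member was measured when a probe set carried its symbol and no other, and where there were several the brightest on average across the 12 arrays stood for it. By this rule 31 of the 34 were measured, among 18193 genes in all. Eno1 and Gpi1 had no such probe set in the annotation used, and the 3 probe sets of Bnip3l also carried the symbol Bnip3l-ps. Ero1l was found under its present symbol, Ero1a.

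Total RNA of mouse tumours was hybridised to 1-colour Affymetrix arrays, 4 for each of the lung adenocarcinoma lines 344SQ, 393LN and 393P. All came from mice carrying the alleles p53R172H∆g/+ and K-rasLA1/+, and each line was a mass population of cultured tumour cells rather than a clone. 393P was grown from a primary lung tumour and 393LN from a lymph node of the mediastinum in that mouse, while 344SQ was grown from a subcutaneous site of another mouse, so that line and mouse of origin cannot be told apart in either comparison with 344SQ. The labels call 344SQ highly metastatic, 393LN intermediately metastatic and 393P non-metastatic. The arrays hold tumours grown in syngeneic hosts, dissected and snap-frozen. No untreated or normal lung sample was analysed here. The labels do not say whether the 4 samples of a line came from separate animals, so p-values measure the spread between these samples. Replicate numbers only name the arrays and carry no order. The sample numbers in the titles are all lower for 393LN than for either other line. What these numbers stand for is not said, so any handling tied to them cannot be told apart from the line 393LN.

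Hypoxia-inducible factors are transcription factors built from an alpha subunit, such as the products of Hif1a and Epas1, and a constant partner. In normal oxygen the prolyl hydroxylases encoded by Egln1 and Egln3 mark the alpha subunit for destruction. When oxygen falls the subunit persists and binds short DNA elements near genes for glucose uptake, glycolysis, lactate export, vessel growth and mitochondrial turnover, and several of these genes, Egln3 among them, feed back on the pathway. The alpha subunit is controlled mainly as a protein, so its transcript is not a readout of its activity. Solid tumours commonly hold hypoxic regions, and many run glycolysis at a high rate even with oxygen present.

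RefSeq promoter windows (GRCm38.p6, 250 bases before to 50 after an annotated start) were given for 30 of the 34 members, Eno1 and Gpi1 included. The core of a hypoxia response element is ACGTG or GCGTG, and both letter strings were searched on both strands. The palindrome CACGTG holds ACGTG on each strand and is also the E box of other factors. At least 1 match lay in a window of 27 of the 30 genes (90.0%), against 46.7% of all 27025 genes with windows. The share for ACGTG alone was 63.3% among the members and 21.8% among all genes. A gene with several windows has more chances of a match. By window the shares were 79.5% for the members and 43.8% for all genes, and for ACGTG 50% and 19.6%. Both strings contain the dinucleotide CG, of which the members' 44 windows held a median of 20.5 and all 32851 windows a median of 7. The windows below belong to members called lower in 344SQ than in 393P (Slc16a3, Kdm3a, Ddit4), called higher in 344SQ than in 393LN (Egln3, Ankrd37) or not called in any comparison (Ldha). They were picked to hold a match, so the presence of the core in each of these groups follows from that choice. Eno2, Tpi1 and Gpi1 had no match in their windows. Capitals mark matches on either strand, and each sequence runs 5′ to 3′ on the gene's own strand. The windows are chr11:120948817-120949116 (plus strand) for Slc16a3, chr12:54203825-54204124 (minus) for Egln3, chr6:71632868-71633167 (minus) for Kdm3a, chr10:59951721-59952020 (minus) for Ddit4, chr8:45999801-46000100 (minus) for Ankrd37 and chr7:46845554-46845853 (plus) for Ldha.
Slc16a3: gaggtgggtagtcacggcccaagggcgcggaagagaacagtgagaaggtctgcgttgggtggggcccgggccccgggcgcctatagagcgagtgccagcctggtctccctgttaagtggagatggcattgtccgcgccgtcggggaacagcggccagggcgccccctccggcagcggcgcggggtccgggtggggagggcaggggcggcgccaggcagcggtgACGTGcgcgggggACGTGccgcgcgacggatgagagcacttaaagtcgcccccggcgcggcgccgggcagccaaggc
Egln3: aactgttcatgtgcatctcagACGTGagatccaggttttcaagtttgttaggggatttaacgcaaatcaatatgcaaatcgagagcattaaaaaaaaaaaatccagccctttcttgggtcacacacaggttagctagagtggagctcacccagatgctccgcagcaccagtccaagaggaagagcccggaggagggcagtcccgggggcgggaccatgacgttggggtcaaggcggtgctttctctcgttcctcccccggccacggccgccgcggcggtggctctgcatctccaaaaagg
Kdm3a: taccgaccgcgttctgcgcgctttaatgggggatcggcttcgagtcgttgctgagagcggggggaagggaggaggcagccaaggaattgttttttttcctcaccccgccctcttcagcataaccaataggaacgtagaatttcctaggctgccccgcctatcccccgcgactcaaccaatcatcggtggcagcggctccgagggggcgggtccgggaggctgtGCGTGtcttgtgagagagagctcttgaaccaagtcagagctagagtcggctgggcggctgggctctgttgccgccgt
Ddit4: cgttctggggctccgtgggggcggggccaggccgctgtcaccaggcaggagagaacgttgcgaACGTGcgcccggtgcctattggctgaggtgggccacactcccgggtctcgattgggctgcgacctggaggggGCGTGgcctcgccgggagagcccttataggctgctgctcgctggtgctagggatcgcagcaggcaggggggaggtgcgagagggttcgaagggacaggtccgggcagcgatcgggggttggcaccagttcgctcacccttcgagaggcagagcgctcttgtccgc
Ankrd37: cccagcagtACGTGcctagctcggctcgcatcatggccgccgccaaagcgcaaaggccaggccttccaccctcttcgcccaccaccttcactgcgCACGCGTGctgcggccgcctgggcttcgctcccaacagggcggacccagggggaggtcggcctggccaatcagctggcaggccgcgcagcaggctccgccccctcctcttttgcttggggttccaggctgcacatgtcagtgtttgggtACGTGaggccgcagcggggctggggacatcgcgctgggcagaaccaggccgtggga
Ldha: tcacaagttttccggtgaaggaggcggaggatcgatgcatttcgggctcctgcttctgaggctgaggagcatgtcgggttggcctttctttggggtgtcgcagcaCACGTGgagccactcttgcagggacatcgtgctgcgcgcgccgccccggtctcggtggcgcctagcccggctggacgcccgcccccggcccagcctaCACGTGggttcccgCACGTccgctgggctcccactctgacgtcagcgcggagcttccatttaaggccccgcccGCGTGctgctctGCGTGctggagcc

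The windows held 2 matches for Slc16a3, 1 each for Egln3 and Kdm3a, 2 for Ddit4, 4 for Ankrd37 and 7 for Ldha. Kdm3a has 2 further windows, with 0 matches, and Ldha 1 further window, with 2, not shown here. In Ldha 2 CACGTG palindromes, each counted on both strands, gave 4 of the 7. A match is a description of the letters and not evidence of binding.

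Intensities were analysed as log2(intensity + 16), the scale of every level below, and near the floor a fold on this scale is smaller than the true one. Array medians of the deposited log2 values lay between 7.19 and 7.29. On 393P replicate 1 the ratio of 3′ to 5′ actin probe sets, a sign of RNA degradation when high, was 1.47, against 1.04 to 1.19 on the other 11 arrays. Epithelial markers were bright on all arrays, with Cdh1, Krt7, Krt8, Krt18 and Krt19 at 13.02 or more, but Epcam, the sixth, fell in 344SQ (8.30 to 10.27, against 13.10 to 13.56). Of the lung markers, Nkx2-1 stayed between 4.09 and 4.57, at or near the floor of 4.09, and Scgb1a1 between 4.30 and 4.89. Surfactant gene Sftpb read 11.43 to 13.42 in 344SQ and 7.38 to 7.74 in the 393 lines, and was the 1 lung marker of 6 called in any comparison. In such bulk samples, fewer cells of a type and less RNA per cell cannot be told apart.

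The members split in direction rather than moving as a block. Against 393P, 344SQ was higher for 3 of the 31 (Slc2a3, Egln3 and Hif1a) and lower for 5 (Kdm3a, Pfkfb4, Ddit4, Aldoc and Slc16a3). This is 9.68% and 16.1% of the members, and across all 18193 genes 4.86% were called higher and 5.62% lower at the same threshold, an adjusted p under 0.05. Without the dimmest 50% of genes, 867 of 9096 genes were called higher and 966 lower, beside 3 and 6 of the 30 members kept. The all-gene shares here and below include dim genes, while 30 of the 31 members lay in the brighter 50%. The median difference over the members was -0.17 (-0.05 with the most variable probe set of each gene), against -0.00066 over all genes, with 11 members positive and 20 negative. The 4 values of each line did not overlap for 10 of the 31 members, against 16.7% of all genes. Without 393P replicate 3 the number called dropped to 3, and it was 4 without 344SQ replicate 1 or replicate 3. It was 5 without 344SQ replicate 2 or 4 or without 393P replicate 2 or 4, so most of these calls sit close to the threshold.

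Against 393LN, 344SQ was higher for 3 members (Egln3, Slc2a3 and Ankrd37) and lower for 2 (Kdm3a and Ddit4). Across all genes 3.99% were called higher and 6.92% lower. Without the dimmest 50% of genes, 619 of 9096 genes were called higher and 1270 lower, beside 3 and 3 of 30 members. The median over the members was -0.09, against -0.02 over all genes. Lines did not overlap for 8 of the 31, against 17.4% of all genes. Scaling moved the balance of higher and lower calls: under quantile normalization 921 genes were higher and 1007 lower, in place of 725 and 1259, and both quantile normalization and centring on the median left 3 members higher and 1 lower. A single member remained called without 393LN replicate 3. There were 3 without 344SQ replicate 1, 2 or 3, without 393LN replicate 2, or without 393P replicate 2, 3 or 4.

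Between 393LN and 393P, lines of the same mouse, Egln1 was higher and Slc16a3 lower in 393LN. That is 1 of 31 members each way, against 1.75% of all genes higher and 0.698% lower. Without the dimmest 50% of genes, 439 of 9096 genes were called higher and 146 lower, beside 1 and 2 of 30 members. The median over the members was -0.07, against 0.0095 over all genes, and the lines did not overlap for 7 of the 31, against 10.3% of all genes. Of all genes 319 were higher and 127 lower, a split that became 233 and 184 under quantile normalization and 264 and 152 with centred arrays. Under both scalings 0 members were higher and 2 lower. No member (0) passed in limma without 393P replicate 3, when 6 had an unadjusted p under 0.05, and 1 passed without 393LN replicate 2 or 4 or 393P replicate 2 or 4. The comparisons share lines, so their values for a gene are not independent.

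**Figure D1:**
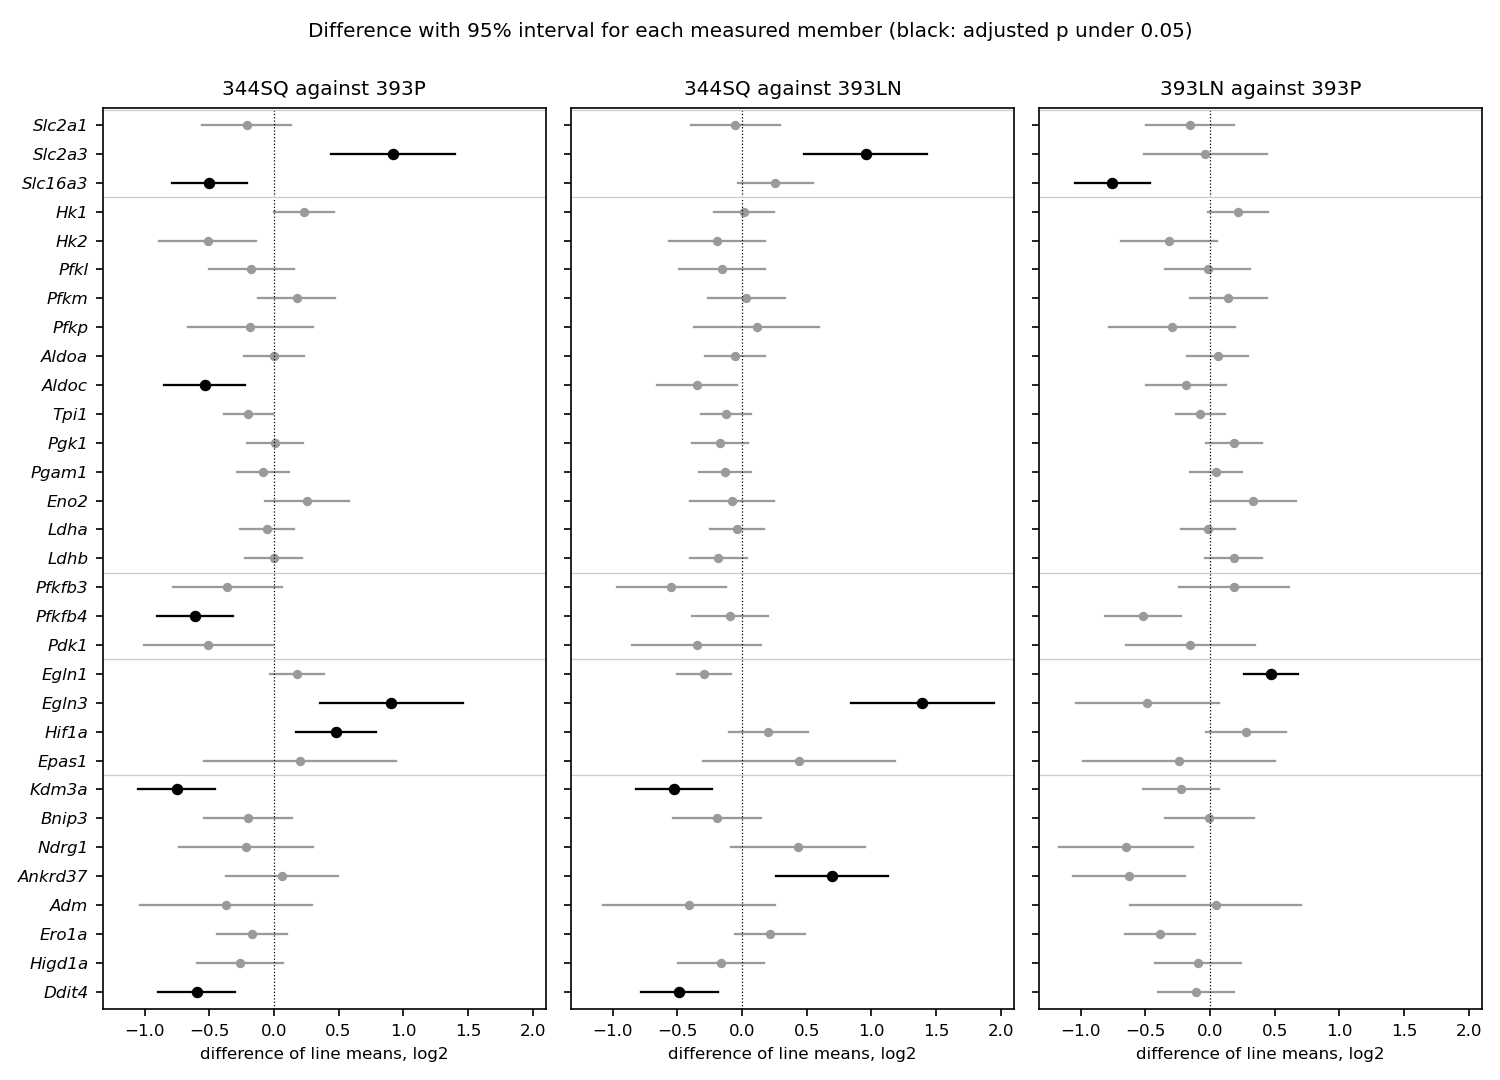
Differences of line means (log2 scale, horizontal axis) with 95% intervals for the 31 measured members, ordered by role from transporters at the top to other hypoxia targets at the bottom, in the 3 comparisons. Black marks an adjusted p under 0.05: 8, 5 and 2 members, lying on both sides of 0 in each panel.

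In all, 10 members were called in at least 1 comparison, against 16.5% of all genes, and 5 of these in 2, against 7.14%, while 21 were called in none. In the model over all 34945 probe sets, 4 of the 15 calls did not pass with the same probe sets: Egln3 (adjusted p = 0.0511) and Hif1a (0.0643) against 393P, and Ankrd37 (0.0572) and Ddit4 (0.0545) against 393LN. A difference of more than 2-fold occurred once among the members, for Egln3 between 344SQ and 393LN. The line with the highest mean was 393P for 16 members, 393LN for 8 and 344SQ for 7, beside 30.2%, 34.4% and 35.5% of all genes. The lowest mean was in 344SQ for 16, in 393LN for 8 and in 393P for 7, beside 38.3%, 30.3% and 31.5%. The 393LN mean lay between those of the other lines for 15 members, so the order of the lines by metastatic label was kept, in one direction or the other, in 15 of 31, and across all genes in 35.2%.

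Among the transporters, 344SQ was higher than 393P for a glucose carrier and lower for the lactate exporter. Slc2a3, a high-affinity glucose transporter, read 9.21, 9.55, 9.69 and 10.20 on 344SQ replicates 1 to 4, 8.91, 9.02, 8.40 and 8.50 on the 393LN arrays, and 9.05, 8.88, 8.41 and 8.62 on the 393P arrays. Every 344SQ array lay above all 8 arrays of the 393 lines. It was 1.89-fold higher in 344SQ than in 393P (log2 difference 0.92 ± 0.22 SE, adjusted p = 0.0187) and 1.94-fold higher than in 393LN (0.96 ± 0.22, adjusted p = 0.0163). Between the 393 lines the difference was -0.04 (95% interval -0.51 to 0.44). The call against 393P ended without 393P replicate 3 (adjusted p = 0.0611) or replicate 4 (0.051), and the call against 393LN without 393LN replicate 3 (0.0502). Of its 3 other probe sets, 1 passed against 393LN (0.92, adjusted p = 0.0384 over all probe sets) and none against 393P.

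Leukocytes use Slc2a3 too, and some of their markers differed between lines. The mean of 13 macrophage and monocyte markers was 10.14 to 10.996 on the 344SQ arrays, 10.65 to 11.22 in 393LN and 10.82 to 11.49 in 393P. Of the 13, 3 fell against 393P and 2 against 393LN, beside 5.62% and 6.92% of all genes called lower. In limma 10 and 6 had an unadjusted p under 0.05, in either direction. The median differences of the 13 were -0.67 and -0.57, while Mrc1 went the other way, at 0.68 and 0.48. For 8 neutrophil markers the mean ranged from 7.75 to 9.71, from 8.66 to 9.79 and from 9.31 to 9.83, with 2 of the 8 fallen in each comparison of 344SQ. The macrophage mean lay below that of every array of the 393 lines on 344SQ replicates 2 and 4, but not on 1 and 3. The neutrophil mean did so on replicates 1 to 3, while replicate 4, the array with the most Slc2a3, had the neutrophil mean of 9.71. The neutrophil markers did not move alike, with a median difference of -0.84 from 393P and -0.18 from 393LN. Padi4 differed most (-3.36 in each). It read 6.35 or less on 344SQ replicates 1 to 3, 10.04 on replicate 4 and 9.82 to 10.98 in the 393 lines. Ltf read at most 7.82 in 344SQ and at least 8.51 in the 393 lines. Of 9 T and NK cell markers 1 rose and 0 fell against 393P in limma, and of 5 B and plasma cell markers 0 were called there, with 0 at an unadjusted p under 0.05. None of the macrophage and neutrophil markers was at the floor on any array (lowest values 5.33 for Cxcr2 and 5.53 for Itgam), and their part in the Slc2a3 difference was not tested.

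Slc16a3, which exports lactate from glycolytic cells, read 10.84, 11.02, 10.80 and 10.90 on the 344SQ arrays, 10.48, 10.79, 10.60 and 10.67 on the 393LN arrays, and 11.07, 11.63, 11.59 and 11.28 on the 393P arrays. The 3 lines did not overlap, with 393P highest and 393LN lowest. It was 1.69-fold lower in 393LN than in 393P (-0.76 ± 0.13, adjusted p = 0.0147) and 1.41-fold lower in 344SQ than in 393P (-0.50 ± 0.13, adjusted p = 0.032). The difference between 344SQ and 393LN was 0.26 (adjusted p = 0.25). The first call ended without 393P replicate 3 (adjusted p = 0.0519) and with only the 393 lines in the model (0.0563). The second ended without 344SQ replicate 1, 3 or 4 or 393P replicate 2 or 3 (0.059 to 0.0972), with only its lines in the model (0.06) and with the most variable probe set of each gene (0.0502). Slc16a3 has 1 probe set, so its own values were the same in that last setting. Slc2a1, the widely expressed glucose transporter of hypoxic cells, had line means of 12.28 ± 0.19 (SD, n = 4) for 344SQ, 12.34 ± 0.14 for 393LN and 12.49 ± 0.32 for 393P, and was not called in any comparison.

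Of the 13 enzymes measured from hexokinase to lactate dehydrogenase, 1 fell in 344SQ against 393P and 0 rose. Over all genes 5.62% fell and 4.86% rose in that comparison. Against 393LN, and between the 393 lines, limma called 0 of 13, with 1 at an unadjusted p under 0.05 in each. For the most widely expressed of these enzymes the intervals of the difference were narrow. Ldha, which turns pyruvate to lactate, had line means of 13.77 ± 0.11 for 344SQ, 13.81 ± 0.09 for 393LN and 13.83 ± 0.10 for 393P. For Ldha the 95% interval of the difference between 344SQ and 393P ran from -0.26 to 0.15. Pgk1, a kinase that yields ATP, had means of 13.61, 13.78 and 13.60, and its interval ran from -0.21 to 0.23. Aldoa, the main aldolase, had means of 13.64, 13.70 and 13.64, with an interval from -0.23 to 0.24. For Pgam1 the interval ran from -0.28 to 0.12. That of Tpi1 lay below 0, from -0.39 to -0.0053, but the adjusted p was 0.198. The other probe sets of Tpi1 had differences of -0.22 and -0.27 and did not pass. Ldha, Pgk1, Aldoa, Tpi1 and Pgam1 had every line mean above 13, where the highest value in the table was 14.42, so they were read in the top of the array's range. Whether that range hid a difference was not tested.

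Aldoc, an aldolase of brain that low oxygen also induces, read 9.98, 9.93, 9.99 and 9.81 on the 344SQ arrays, 9.91, 10.58, 10.41 and 10.22 on the 393LN arrays, and 10.50, 10.53, 10.62 and 10.21 on the 393P arrays. All 344SQ arrays lay below all 393P arrays, while 393LN overlapped both. It was 1.45-fold lower in 344SQ than in 393P (-0.54 ± 0.14, adjusted p = 0.0328). The call ended without any 1 of the 344SQ arrays or without 393P replicate 1, 2 or 3 (adjusted p 0.0586 to 0.0964), and its other probe set did not pass (-0.42, adjusted p = 0.428). Against 393LN the difference was -0.35 (adjusted p = 0.144), and it passed without 393LN replicate 1 (-0.47, adjusted p = 0.0429). Averaging the probe sets of each gene also ended the call against 393P (0.0816).

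Hk2, the hexokinase induced by hypoxia, had line means of 11.36 ± 0.23 for 344SQ, 11.56 ± 0.20 for 393LN and 11.88 ± 0.32 for 393P. No 344SQ array reached a 393P array, but the difference of -0.51 did not pass (adjusted p = 0.0831). It did pass without 393P replicate 1 (-0.61, adjusted p = 0.0482) and without the dimmest 50% of genes (0.0489). Hk1, the constitutive hexokinase, had a difference of 0.23 (adjusted p = 0.212), opposite in sign to that of Hk2. The phosphofructokinase subunit genes had differences between 344SQ and 393P of -0.17 for Pfkl, 0.18 for Pfkm and -0.18 for Pfkp, none past the threshold. For Tpi1, Pgam1 and Eno2 they were -0.20, -0.08 and 0.25, with adjusted p of 0.198, 0.67 and 0.351.

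Ldhb, the lactate dehydrogenase subunit that favours pyruvate, depended on the probe set. Its brightest probe set gave 9.22, 9.40 and 9.22 for 344SQ, 393LN and 393P and no call. The dimmest of its 4 probe sets gave 6.16, 7.17 and 7.24, a fall in 344SQ of 1.08 against 393P (adjusted p = 0.0242 over all probe sets) and of 1.01 against 393LN (adjusted p = 0.0348). The other 2 had differences of -0.44 and -0.23 against 393P and did not pass. Taking the mean of the probe sets gave -0.44 against 393P (adjusted p = 0.0168) and -0.50 against 393LN (adjusted p = 0.0084).

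The 3 regulators of flux had lower means in 344SQ than in 393P, and 1 passed, beside 5.62% of all genes called lower. Pfkfb4 makes and breaks down the sugar phosphate that activates phosphofructokinase. It read 9.27, 9.14, 9.10 and 9.03 on the 344SQ arrays, 9.38, 9.04, 8.996 and 9.49 on the 393LN arrays, and 9.85, 9.95, 9.63 and 9.56 on the 393P arrays. The 393P arrays all lay above the 8 others. Pfkfb4 was 1.53-fold lower in 344SQ than in 393P (-0.61 ± 0.13, adjusted p = 0.0134), a call kept on leaving out any 1 array. It ended when 393P replicate 1 and 344SQ replicate 4 were both left out (-0.54, adjusted p = 0.0617). For 393LN against 393P the difference was -0.52 (adjusted p = 0.0681), which passed under 5 of the 11 other settings, quantile normalization among them (-0.61, adjusted p = 0.038).

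Pfkfb3, the paralog with the stronger activating arm, had line means of 8.54 ± 0.13 for 344SQ, 9.08 ± 0.39 for 393LN and 8.90 ± 0.30 for 393P. Its difference of -0.55 from 393LN (adjusted p = 0.0976) passed without 393LN replicate 4 (-0.73, adjusted p = 0.0207). Its second probe set had the opposite sign in that comparison (0.54, adjusted p = 0.20). Pdk1, the kinase that holds pyruvate back from the mitochondria, had a difference of -0.51 between 344SQ and 393P (adjusted p = 0.203), and its 393LN arrays spread from 9.99 to 11.17.

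The oxygen-sensing genes held the largest difference of any member. Egln3, the hydroxylase that hypoxia induces, read 10.41, 10.18, 9.65 and 10.93 on the 344SQ arrays, 8.59, 8.51, 9.28 and 9.21 on the 393LN arrays, and 9.49, 9.57, 9.19 and 9.28 on the 393P arrays. The lowest 344SQ array, replicate 3, was still above every array of the 393 lines. Egln3 was 2.63-fold higher in 344SQ than in 393LN (1.39 ± 0.25, adjusted p = 0.00499), a call kept under all 11 other settings and on leaving out any 1 array. Against 393P it was 1.88-fold higher (0.91 ± 0.25, adjusted p = 0.0398). That second call ended without 344SQ replicate 1, 2 or 4 or any 1 of the 393P arrays (adjusted p 0.0605 to 0.106), and with a pseudocount of 1 (0.0539), only those lines (0.0521) or the actin ratio as a covariate (0.0517). The second probe set of Egln3 passed the same way in both comparisons (1.38 against 393LN and 1.09 against 393P).

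Egln1, the main hydroxylase in normal oxygen, read 11.69, 11.57, 11.57 and 11.81 on the 344SQ arrays, 11.87, 11.996, 11.86 and 12.09 on the 393LN arrays, and 11.40, 11.53, 11.46 and 11.53 on the 393P arrays. The lines did not overlap, with 393LN highest and 393P lowest. It was 1.39-fold higher in 393LN than in 393P (0.47 ± 0.096, adjusted p = 0.0263). The call ended under quantile normalization (adjusted p = 0.0535), with arrays centred on the median (0.0522) or only the 393 lines in the model (0.0606), and without 393LN replicate 2 or 4 or 393P replicate 2, 3 or 4 (0.0595 to 0.0729). Its other probe set gave 0.39 (adjusted p = 0.499). For 344SQ against 393LN the difference of -0.29 did not pass (adjusted p = 0.0723), but it did with a pseudocount of 64 (adjusted p = 0.0358) or without the dimmest 50% of genes (0.0409).

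Hif1a, the oxygen-regulated subunit gene, read 12.76, 12.64, 12.67 and 12.63 on the 344SQ arrays, 12.59, 12.38, 12.40 and 12.51 on the 393LN arrays, and 11.72, 12.42, 12.30 and 12.33 on the 393P arrays. Each 344SQ array exceeded all others, and 393P replicate 1 was far below the rest of its line. The gene was 1.40-fold higher in 344SQ than in 393P (0.48 ± 0.14, adjusted p = 0.0492). This call ended without any 1 of 10 arrays, the exceptions being 393P replicates 1 and 2 (adjusted p 0.057 to 0.112), and in the model over all probe sets none of its 4 passed (adjusted p = 0.0643 for the chosen one and 0.0524 for the next brightest, at a difference of 0.65). It also ended with a pseudocount of 1, with the mean or the most variable of a gene's probe sets, and with only the compared lines in the model (0.0606 to 0.51). Without 393P replicate 1 and 344SQ replicate 4 the difference was 0.34 (adjusted p = 0.0563).

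Epas1, the related subunit of endothelium and other cells, had line means of 10.53 ± 0.44 for 344SQ, 10.09 ± 0.56 for 393LN and 10.32 ± 0.62 for 393P. It had the largest SD of all members in both 393 lines, and it was not called. The mean of 9 endothelial markers ranged from 9.01 to 9.53 for 344SQ, from 8.91 to 9.34 for 393LN and from 8.76 to 9.29 for 393P. Of the 9, 1 rose in 344SQ against each 393 line, and the median difference over the list was 0.03 from 393P and -0.02 from 393LN. Ptprb read at least 10.34 on the 344SQ arrays and 8.11 to 9.69 on the others. The lowest Epas1 arrays in 344SQ and 393P, replicate 4 of each, also had the lowest endothelial mean of the line. In 344SQ the margin was small, 9.01 against 9.07 on replicate 2. Pecam1, Tie1, Emcn and Vwf were lower on replicate 2 than on replicate 4, and the other markers, Ptprb among them, higher. In 393LN Epas1 was lowest on replicate 4 (9.50), where the endothelial mean was 9.12, above the 8.91 of replicate 2. The part of these cells in Epas1 was not tested.

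**Figure D2:**
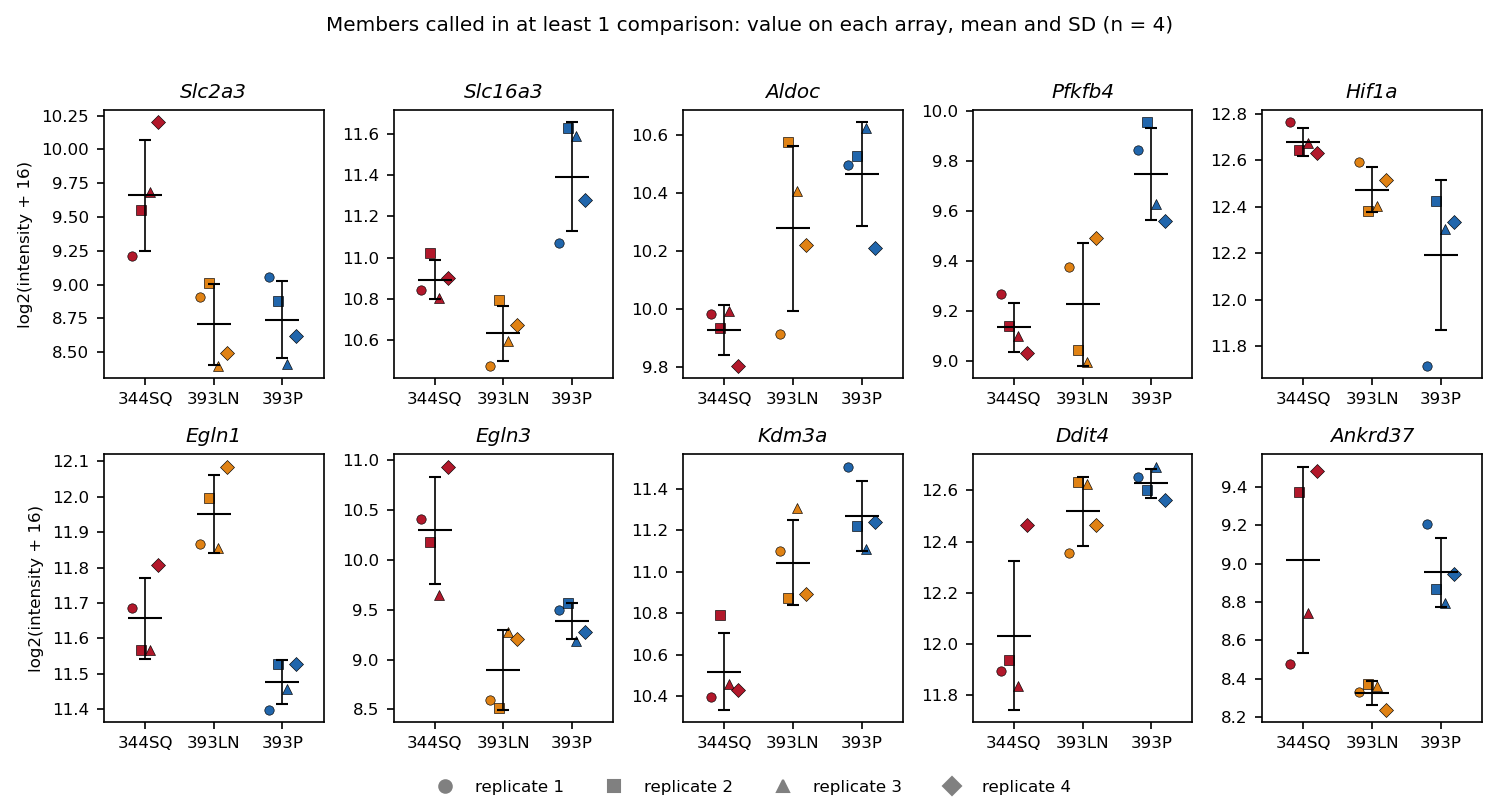
Levels of the 10 members called in at least 1 comparison, as log2(intensity + 16) on each of 12 arrays (symbols by replicate), with the mean and SD of each line (n = 4). Slc2a3, Egln3 and Hif1a are highest on the 344SQ arrays and Kdm3a is lowest there, while Pfkfb4 lies higher on the 393P arrays, and Ankrd37 lower on the 393LN arrays, than on all others.

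Of the 8 other hypoxia targets, 2 were lower in 344SQ in both of its comparisons and 1 was higher in that with 393LN. Over all genes 5.62% were called lower against 393P, and 6.92% lower and 3.99% higher against 393LN. Kdm3a, a histone demethylase that needs oxygen and is induced when oxygen is short, read 10.40, 10.79, 10.46 and 10.43 on the 344SQ arrays, 11.10, 10.87, 11.31 and 10.89 on the 393LN arrays, and 11.51, 11.22, 11.11 and 11.24 on the 393P arrays. All 344SQ arrays lay below those of both 393 lines, replicate 2 nearest to them. It was 1.68-fold lower than in 393P (-0.75 ± 0.14, adjusted p = 0.00429), and that call held under all 11 other settings and on leaving out any 1 array. Kdm3a has 1 probe set, so the settings on the choice of probe set left its values unchanged. Against 393LN it was 1.44-fold lower (-0.53 ± 0.14, adjusted p = 0.0287). The latter call ended without 344SQ replicate 1, 3 or 4 or 393LN replicate 1 or 3 (adjusted p 0.0626 to 0.078), under quantile normalization (0.0526) and with only those lines in the model (0.0507).

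Ddit4, a stress-induced brake on mTOR signalling, read 11.90, 11.94, 11.84 and 12.46 on the 344SQ arrays, 12.35, 12.63, 12.62 and 12.46 on the 393LN arrays, and 12.65, 12.60, 12.69 and 12.56 on the 393P arrays. The first 3 arrays of 344SQ were lower than all the rest, and replicate 4 reached the 393LN range. It was 1.51-fold lower in 344SQ than in 393P (-0.60 ± 0.14, adjusted p = 0.0159) and 1.40-fold lower than in 393LN (-0.49 ± 0.14, adjusted p = 0.0407). The first call ended without 344SQ replicate 3 (adjusted p = 0.0501). The second ended without 344SQ replicate 1, 2 or 3, 393LN replicate 2, 3 or 4, or 393P replicate 2, 3 or 4 (0.0544 to 0.107), and under 4 of the 11 other settings (0.0502 to 0.0869). Without 344SQ replicate 4 the differences were -0.74 and -0.63.

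Ankrd37, an ankyrin-repeat gene induced by hypoxia, read 8.48, 9.38, 8.74 and 9.48 on the 344SQ arrays, 8.33, 8.37, 8.36 and 8.24 on the 393LN arrays, and 9.21, 8.87, 8.79 and 8.95 on the 393P arrays. The 393LN arrays lay together below all others, and the 344SQ arrays were spread wide. It was 1.62-fold higher in 344SQ than in 393LN (0.69 ± 0.20, adjusted p = 0.0436), with a difference of 0.06 from 393P. The call ended without 344SQ replicate 2 or 4, any 1 of the 393LN arrays, or 393P replicate 2, 3 or 4 (adjusted p 0.0581 to 0.127), and under 3 of the 11 other settings (0.0545 to 0.0857). For 393LN against 393P its difference was -0.63 (adjusted p = 0.126), which passed with only the 393 lines in the model (0.0462).

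Ndrg1, a stress-response gene, and Ero1a, an oxidase of the endoplasmic reticulum, had 393LN arrays all below the 393P arrays but did not pass (-0.65, adjusted p = 0.197, and -0.39, adjusted p = 0.132). Bnip3, a receptor for the removal of mitochondria, had means of 12.25, 12.44 and 12.44 in 344SQ, 393LN and 393P. Higd1a, a mitochondrial membrane protein gene, had means of 11.89, 12.05 and 12.15. Its difference between 393LN and 393P was -0.10 on this probe set. On its dimmer probe sets it was 0.56 and 0.57, with 393LN highest (adjusted p = 0.157 and 0.142 over all probe sets). Adm encodes the vasodilator adrenomedullin. It read 8.88, 9.57, 9.16 and 10.69 on the 344SQ arrays, 9.80 to 10.30 in 393LN and 9.80 to 10.10 in 393P. On 3 of the 4 344SQ arrays Adm was below every array of the 393 lines, and on replicate 4 it was above them all. No difference passed over all arrays (-0.37 against 393P, adjusted p = 0.537, and -0.41 against 393LN, adjusted p = 0.442). Without replicate 4 both did (-0.74, adjusted p = 0.0221, and -0.78, adjusted p = 0.0177).

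That array stood out for several members at once. Of the 8 other hypoxia targets, 344SQ replicate 4 was the highest of its line for 5, and the mean of the 8 was 0.37 above the line mean. It was also the highest of its line for Slc2a3 (10.20) and Egln3 (10.93). Ndrg1, 1 of the 5, reached 12.85 there, with 11.50 to 12.23 on the rest of its line. For the 13 glycolytic enzymes it was the highest for 3, with their mean 0.02 above the line mean. On the same array the neutrophil marker mean was 9.71, where the rest of the line lay between 7.75 and 8.58, and the macrophage mean was the lowest of the line at 10.14. Their part in these values was not tested.

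**Figure D3:**
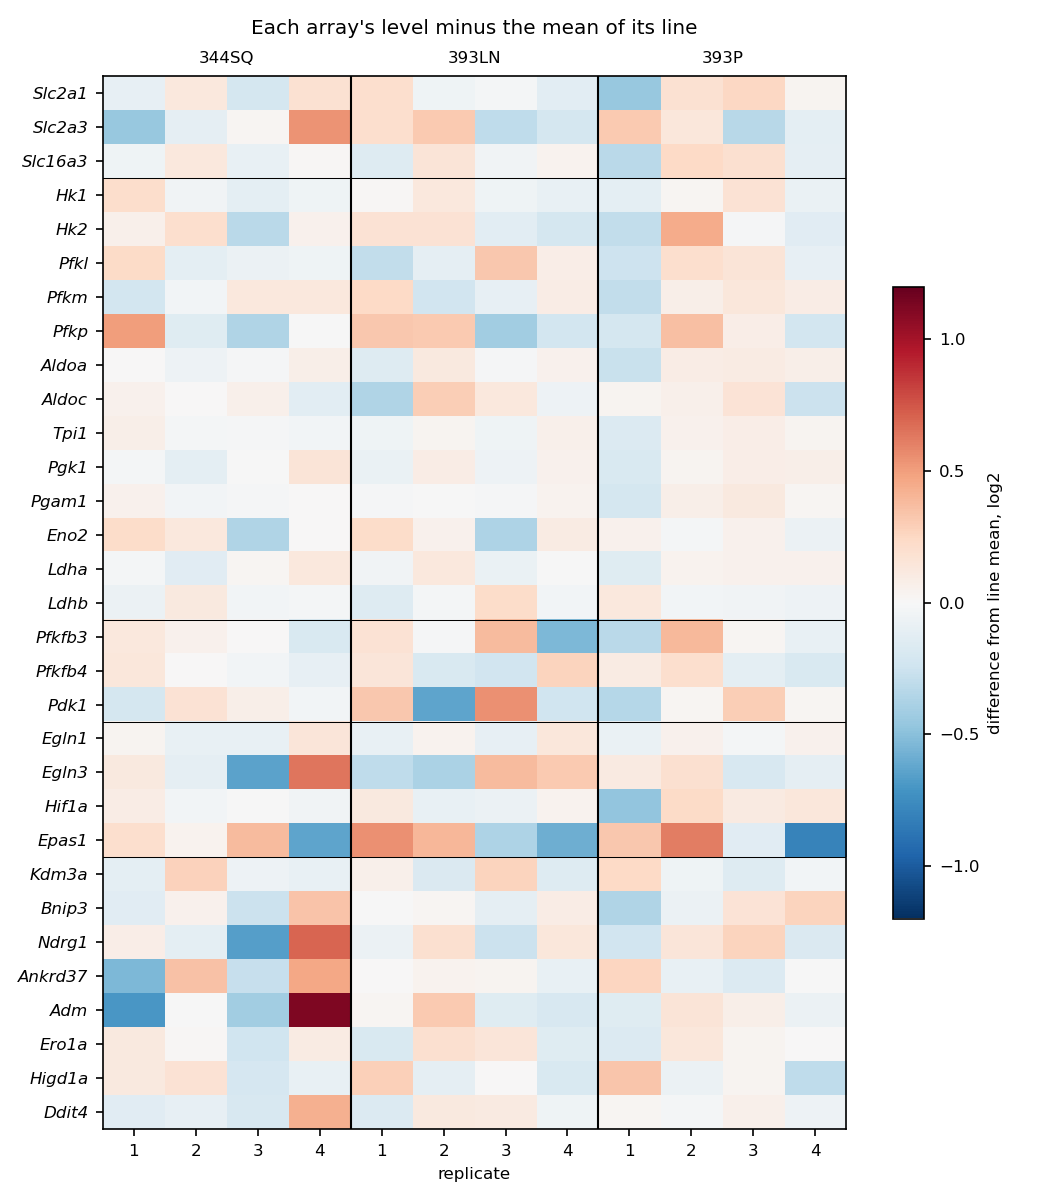
Each array's level minus the mean of its own line (colour, log2 scale) for the 31 members, grouped by role, with the 4 replicates of each line side by side. The 344SQ replicate 4 column is high for Adm, Ndrg1, Egln3 and Ddit4, and the 393P replicate 1 column is low for most glycolytic enzymes.

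On 393P replicate 1, the array with the actin ratio of 1.47, 19 of the 31 members and 9 of the 13 glycolytic enzymes had the lowest value of their line. Over all 72 probe sets of the members it was the lowest of its line for 45, against 4 to 29 on the other 11 arrays. For 8 of the 72 it lay at least 1 log2 unit below the mean of the other 393P arrays, and no other array had more than 2 such probe sets. The gaps were largest on secondary probe sets: Ndrg1 at 7.76 against a mean of 10.66, Hk1 at 7.75 against 9.80, Pfkp at 6.68 against 8.68 and Hif1a at 7.04 against 8.94. On the chosen probe sets they were smaller, such as 11.72 against 12.35 for Hif1a and 12.04 against 12.65 for Slc2a1. Without this array 6 of the 8 calls of 344SQ against 393P held, all but Aldoc (adjusted p = 0.059) and Egln3 (0.0605). Hk2 then passed as well.

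**Figure D4:**
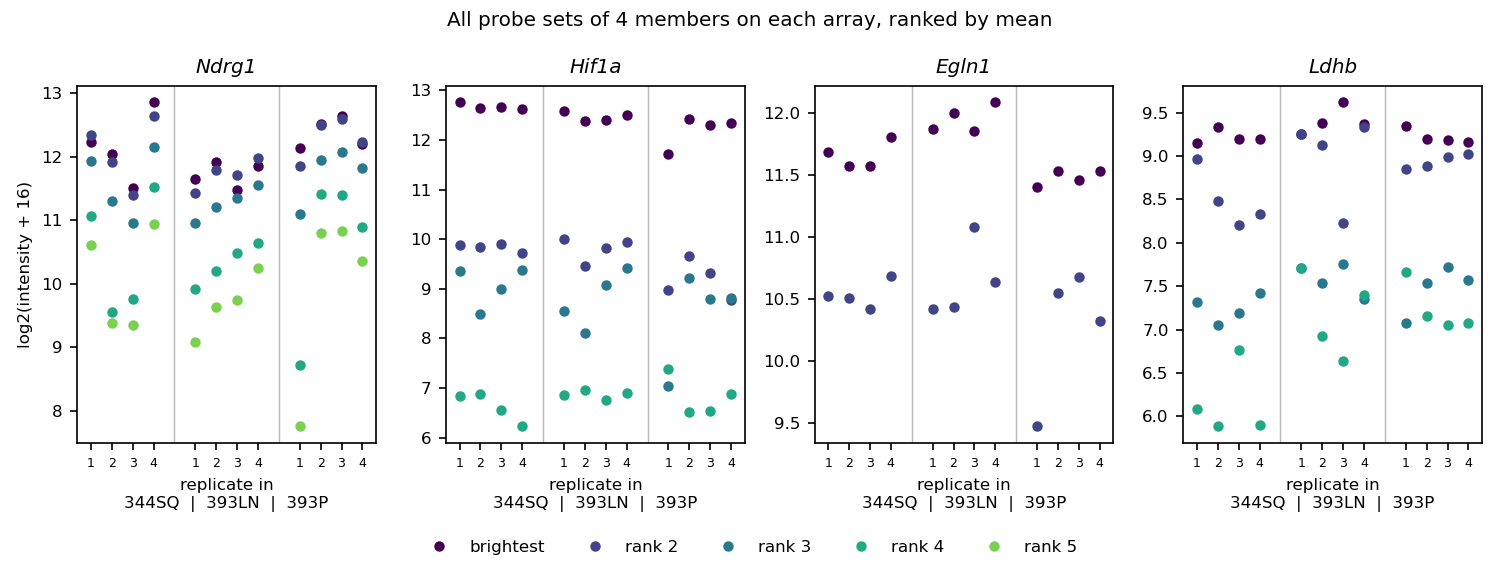
All probe sets of Ndrg1, Hif1a, Egln1 and Ldhb as log2(intensity + 16) on each array, ranked by their mean. The lower-ranked probe sets of Ndrg1 and Egln1 and the third-ranked of Hif1a drop on 393P replicate 1, and for Ldhb the dimmest lies lower on 3 of the 4 344SQ arrays than on any of the 8 arrays of the 393 lines.

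Beyond the members, of 25 further genes of glycolysis, the pentose phosphate pathway and sugar storage, 2 rose and 2 fell in 344SQ against 393P, and 1 rose and 4 fell against 393LN. Over all genes 4.86% rose and 5.62% fell against 393P, and 3.99% and 6.92% against 393LN. Between the 393 lines it was 1.75% and 0.698%, and these shares also stand beside the lists below. Rpia, an isomerase of the pentose phosphate pathway, fell by 1.76 and 1.61, and Fbp2, a fructose bisphosphatase of muscle, rose by 1.73 and 1.93. Pgm1, which links glucose to glycogen, fell by 1.53 against 393P and had a difference of -1.04 from 393LN (adjusted p = 0.0123). Eno3, the muscle enolase, was the 1 gene of this list called between the 393 lines (0.90, adjusted p = 0.048), and it was lower in 344SQ than in 393LN by 1.28 (-1.28). Eno3 also stood on a list of 12 skeletal muscle markers, whose mean was 9.67 on 393LN replicate 1 and at most 8.57 on any other array. On 393LN replicates 1 to 4 Eno3 itself read 11.38, 11.58, 11.82 and 11.09, where that mean was 9.67, 8.05, 8.23 and 7.81. The part of muscle in Eno3 was not tested.

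Of 29 genes of pyruvate and lactate handling and the citric acid cycle, 0 rose and 2 fell in each comparison of 344SQ. Over all genes 5.62% fell against 393P and 6.92% against 393LN. Dlat, a core subunit of the pyruvate dehydrogenase complex, had differences of -0.57 from 393P (adjusted p = 0.0458) and -0.77 from 393LN (0.0119). Suclg2, of succinyl-CoA ligase, fell against 393P (-0.52, adjusted p = 0.0374), and Fh1, the fumarase gene, fell against 393LN (-0.51, adjusted p = 0.038). Between the 393 lines limma called 0 of 29, with 9 at an unadjusted p under 0.05. The share of all genes at that unadjusted p is not given here. The median difference of the 29 between the 393 lines was 0.24 (from -0.12 to 0.73), beside 0.0095 over all genes. In 344SQ the medians were 0.07 against 393P and -0.15 against 393LN.

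Among 16 further regulators of the hypoxia pathway, Os9 (0.46, adjusted p = 0.0407) and Sirt1 (0.55, adjusted p = 0.0464) rose in 344SQ against 393P. Limma called 0 of 16 against 393LN and 0 of 16 between the 393 lines, where 2 and 1 had an unadjusted p under 0.05. Against 393P, 7 of the 16 had one. Of 37 further hypoxia targets, 6 rose and 2 fell against 393P and 4 rose against 393LN. Over all genes 4.86% rose and 5.62% fell against 393P, and 3.99% rose against 393LN. Between the 393 lines 0 of 37 were called, with 8 at an unadjusted p under 0.05. Car9, the cell-surface carbonic anhydrase, had line means of 10.79 ± 0.35 for 344SQ, 8.11 ± 0.50 for 393LN and 7.89 ± 0.31 for 393P. Selenbp1 had means of 11.59 ± 0.20, 9.04 ± 0.40 and 9.53 ± 0.11. The 344SQ arrays overlapped neither 393 line for either gene. Tmem45a rose by 1.21 against 393P, and Cav1, of caveolae, rose by 0.77 against 393LN (adjusted p = 0.0161). Medians of these 37 differences were -0.03 against 393P and 0.09 against 393LN, beside -0.00066 and -0.02 over all genes.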

How the data were processed

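Total RNA of 12 tumour samples, 4 for each of 3 lines, was labelled with biotin and hybridised to Affymetrix arrays, per the labels' protocols. The values are the deposited probe set intensities on a linear scale, and every value of the 45101 probe sets is 2 raised to a power with 2 decimals (tolerance 1e-08 on the power). The sources used here do not say how the authors summarised and normalized the intensities. The chip named by the submitters is a smaller one than the table's probe set count calls for.

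Values were taken as log2(intensity + 16) with no further normalization. Of the probe sets, 34945 carry 1 gene symbol, 932 several and 9160 none, and 64 are controls. A linear model with 1 coefficient for each line was fitted to 12 arrays and 18193 genes in limma 3.58.1 in R 4.3.3 (two-sided, Benjamini-Hochberg adjustment over all genes). The adjusted p of a secondary probe set comes from the same model over all 34945 probe sets. A gene rose or fell at an adjusted p under 0.05. The scripts were tested on simulated data.

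The members, the lists of further genes and markers, and the settings were chosen with earlier results of these data known, and the roles and the removal of 393P replicate 1 with 344SQ replicate 4 after values were seen. Every member is named, and of each further list up to 3 genes with the smallest p past the threshold in each comparison. The 11 other settings changed scaling, pseudocount (1 or 64), the filter on dim genes (25% or 50%), the choice of probe set, the lines in the model, the prior, or added the actin ratio. The choice of probe set could not change the values of the 11 members with 1 probe set. Kdm3a, Pfkfb4, Slc16a3, Ddit4 and Ankrd37 are among these, so no second probe set bears on their calls. Each array was also left out in turn. The number of arrays limits the precision. Promoter windows are from RefSeq (GRCm38.p6), and 0 columns of other samples were present.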

Additional observations from a re-analysis of the deposited data

Results flagged for a closer look

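In 9 of 93 groups of 4 arrays (31 members in 3 lines), 1 array lay far from the other 3 by Dixon's ratio at the 95% level, and chance flags about 1 in 20 groups (4.65 of 93). On 393P replicate 1, the array with the high actin ratio, this held for 6 genes. Pfkm read 8.86 there (the others 9.22 to 9.29), Aldoa 13.37 (13.71 to 13.74), Tpi1 13.64 (13.84 to 13.88), Ldha 13.68 (13.87 to 13.88) and Hif1a 11.72 (12.30 to 12.42), all low, while Ldhb was high at 9.35 (9.16 to 9.19). On 344SQ replicate 2 Kdm3a read 10.79 (10.40 to 10.46), and on 344SQ replicate 4 Ddit4 read 12.46 (11.84 to 11.94). On 393LN replicate 4 Pgam1 read 13.40 (13.34 to 13.35).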

How the results depend on the processing

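For 344SQ against 393P, 8 members were called, and 6 to 9 under the planned settings other than a model with only those lines (5). The count was 5 with 393P replicate 1 and 344SQ replicate 4 both left out, chosen after seeing the data. For 344SQ against 393LN, 5 were called, but 3 with a pseudocount of 1 and 2 with only those lines. For 393LN against 393P, 2 were called, but 1 with the mean of the probe sets, with the most variable probe set or with only those lines. Leaving out each array in turn gave 3 to 7, 1 to 5 and 0 to 2 members. Over all genes it gave 1259 to 1932 (1907 with all arrays), 1167 to 2481 (1984) and 156 to 438 (446). The lowest came without 393P replicate 3, 344SQ replicate 2 and 393P replicate 3. The last count was also 259 without 393LN replicate 2, 167 without 393LN replicate 3, 193 without 393P replicate 2, 192 without 393P replicate 4, and 174 with only those lines. The cause was not tested, except that a model with fewer arrays has fewer degrees of freedom. Of the called members, only Kdm3a (344SQ against 393P) and Egln3 (344SQ against 393LN) passed in every setting and leave-one-out run, and no called difference changed sign. The median over members for 344SQ against 393P was -0.05 with the most variable probe sets, against -0.17. No paired analysis was possible because the labels give no link between single samples of different lines. The 5 members with every line mean above 13 were read near the top of the signal range.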
